A study of Danio rerio with 5 samples.

Results

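DNA methylation was compared between zebrafish embryos of 48 hours post fertilisation (48 hpf) and of 24 hpf, using the peak lists of 1 MethylCap-seq library per stage. Every peak on the 25 numbered chromosomes was taken, which gave 192673 peaks at 48 hpf and 330176 at 24 hpf, or 522849 of the 781830 peaks in the 5 lists of the series. Both libraries came from whole embryos of mixed AB and Tubingen stock, were captured with a Diagenode kit, and differed by label only in the stage. The remaining libraries of the series, MethylCap at dome stage and ChIP-seq of a histone mark, did not enter the comparison. With 1 library per stage there is no replicate spread, so the results are descriptions without p-values. A whole embryo also mixes tissues, so a lower methylation level per cell and fewer methylated cells cannot be told apart.

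In vertebrates most CpG sites carry 5-methylcytosine, which DNA methyltransferases of the Dnmt3 family place and Dnmt1 copies after each replication, whereas active promoters and enhancers tend to be free of it. In zebrafish the 24 hpf embryo has a formed body axis and a heart tube that begins to beat, and by 48 hpf most organs are differentiating. Tet dioxygenases oxidise 5-methylcytosine, and Tet-dependent loss of methylation at developmental enhancers is known from zebrafish, Xenopus and mouse embryos at this phase. MethylCap-seq pulls down DNA fragments with a methyl-CpG binding domain, and the captured fragments pile up where methylated CpGs are dense. A peak therefore marks dense methylation, and sparse methylated CpGs may leave none.

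The lists carried enough information to recover the number of fragments behind each peak. The caller, MACS2, writes for the summit of a peak the fold, which is its fragment count plus 1 over the background rate plus 1, and the Poisson p of that count. For all 522849 peaks, 1 whole number of fragments satisfied both values, within 0.0002 in −log10 p. The median peak held 13 fragments at its summit at 48 hpf (1st to 99th percentile 7 to 33) and 18 at 24 hpf (10 to 36). The lowest background rate, which MACS2 derives from the whole library, was 1.65 fragments at 48 hpf and 2.67 at 24 hpf, and 36.6% and 35.8% of the peaks sat on it. The shortest peaks were 211 bp at 48 hpf and 192 bp at 24 hpf, which by the caller's default is the fragment length it assumed. If so, the 48 hpf library had 0.563 times as many fragments per base as the 24 hpf library. The 48 hpf list was 0.584 times as long as the 24 hpf list. How far depth accounts for the shorter list was not tested beyond the rescaling given later. To set heights side by side, fragments at the summit were divided by the lowest background rate of their library, which is called relative height below.

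Most methylation peaks of 48 hpf lay on peaks of 24 hpf, and about as many 24 hpf peaks were shared as were not. Of the 48 hpf peaks, 158132 of 192673 overlapped a 24 hpf peak by 1 bp or more (82.1%, Wilson 95% interval 81.9 to 82.2%), and 34541 (17.9%) did not. Of the 24 hpf peaks, 159290 of 330176 overlapped a 48 hpf peak (48.2%, 48.1 to 48.4%), and 170886 (51.8%) did not. The division depended on which peaks entered: with the 24 hpf list reduced to the length of the 48 hpf list, 59.4% of 48 hpf peaks and 57.8% of 24 hpf peaks were shared, and in the higher-scoring 50% of each list 65.0% and 38.2%. These intervals, like those that follow, cover counting error only and treat peaks as independent. The 2 lists held 51.4 Mb in common, which was 71.4% of the 72.0 Mb in 48 hpf peaks and 43.2% of the 118.9 Mb in 24 hpf peaks. The 48 hpf-only peaks held 9.53 Mb and the 24 hpf-only peaks 49.8 Mb.

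Few 24 hpf peaks lay near the edge of the 1 bp rule, although a stricter rule lowered the shares. With the summit required inside a peak of the other list, 76.1% of 48 hpf peaks and 42.4% of 24 hpf peaks were shared. Only 1978 of the 24 hpf peaks (0.599%) had a largest overlap under 50 bp, and 1723 (0.522%) missed a 48 hpf peak by under 50 bp. The median largest overlap was 266 bp. The 48 hpf-only peaks lay a median of 974 bp from the nearest 24 hpf peak, and 13.8% of them lay within 200 bp. The 24 hpf-only peaks lay a median of 2139 bp from the nearest 48 hpf peak, 5.39% within 200 bp and 29.2% within 1000 bp. Few peaks overlapped more than 1 peak of the other list by 1 bp or more. At 48 hpf 7273 peaks (3.77%) overlapped 2 or more 24 hpf peaks, and 6102 peaks of 24 hpf (1.85%) overlapped 2 or more 48 hpf peaks.

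Unshared peaks were lower and narrower than shared ones at both stages. At 48 hpf the 48 hpf-only peaks had medians of 12 fragments at the summit and 248 bp in width, and shared peaks 14 fragments and 331 bp. At 24 hpf the 24 hpf-only peaks had 16 fragments and 256 bp, and the shared peaks 20 fragments and 368 bp. Peaks at the shortest width the caller reports made up 22.8% of the 48 hpf-only peaks and 9.09% of the shared 48 hpf peaks. They made up 11.1% of the 24 hpf-only peaks and 3.25% of the shared 24 hpf peaks. Wide peaks were nearly all shared. Among peaks over 1000 bp, 2987 of 2991 at 48 hpf (99.9%) and 4183 of 4408 at 24 hpf (94.9%) had a counterpart, against 68.6% and 27.4% of the peaks of up to 250 bp. A wide interval meets other intervals more readily than a narrow one, and the part of this in the shares was not tested.

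By rank of fold within each list, the 48 hpf-only share of the 48 hpf list was lower in each higher decile, with 31.6% in the lowest and 3.03% (2.80 to 3.28%) in the highest. The share of 24 hpf peaks without a 48 hpf peak was nearly flat over the lower ranks and smaller over the upper ones. It was 61.5% in the lowest decile, 63.2% in the second, 56.6% in the sixth, 41.8% in the eighth and 24.4% (23.9 to 24.9%) in the highest. In the highest fold decile the 48 hpf list thus held 584 peaks without a 24 hpf call, and the 24 hpf list 8057 without a 48 hpf call.

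**Figure D1:**
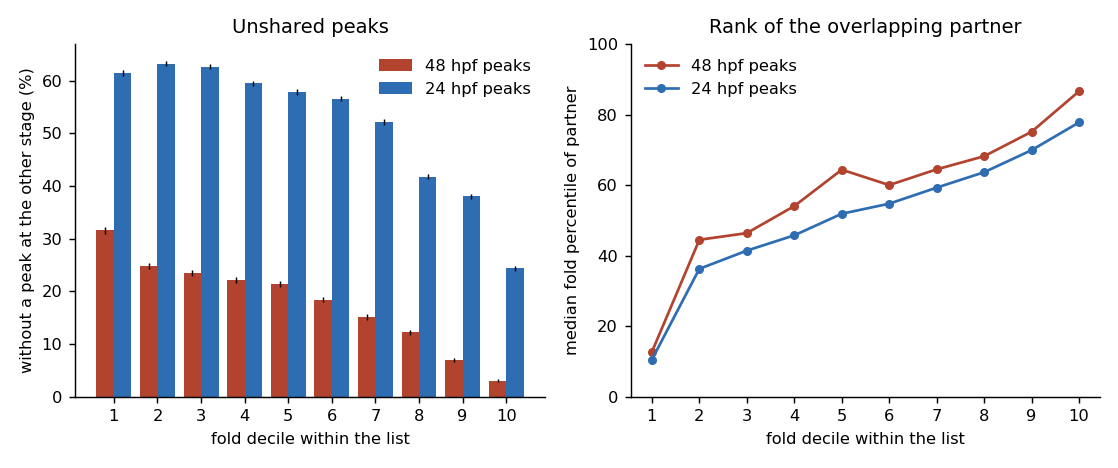
Left, the percentage of peaks without a peak at the other stage (bars, Wilson 95% intervals) in each decile of fold within the list, for 48 hpf (red) and 24 hpf (blue). Right, the median fold percentile of the overlapping partner in its own list; peaks of the highest decile had partners at a median percentile of 86.6 (48 hpf peaks) and 77.8 (24 hpf peaks).

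Among peaks of like background, sharing also rose with relative height. The bins of height are fixed and hold unequal numbers of peaks, so their steps cannot be set against those of the fold deciles. Where the background rate was at most 3 times the lowest, 74.2% of 48 hpf peaks up to a relative height of 6 had a 24 hpf peak, 85.6% between 8 and 10, 95.3% between 12 and 15, and 99.7% (338 of 339) above 20. For the 24 hpf peaks the same steps were 32.3%, 66.5%, 88.1% and 98.3% (119 of 121). Tall unshared peaks on low background were therefore few. Above a relative height of 12 on such background, 829 of 20982 peaks at 48 hpf (3.95%) had no 24 hpf call, and 462 of 4276 at 24 hpf (10.8%) had no 48 hpf call.

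Peaks on a raised background were shared less often than peaks of the same relative height elsewhere. The background rate is the caller's local estimate around the summit, and whether it came from a control library is not given in the sources used here. Where the rate was over 3 times the lowest, 70.1% of 48 hpf peaks and 56.3% of 24 hpf peaks of relative height 12 to 15 had a counterpart. At equal relative height a peak on a raised background has the lower fold, since height is set against the lowest rate. Over all heights the share at 48 hpf was 71.6% on raised background and 83.0% on the rest. At 24 hpf it was 49.9% on raised background and 48.2% on the rest, so that the order was reversed there. Such peaks made up 8.12% of the 48 hpf list (15649) and 5.09% of the 24 hpf list (16801). Rates above 5 times the lowest were found for 7096 peaks at 48 hpf (3.68%) and 1972 at 24 hpf (0.597%). At 48 hpf these high rates did not thin out steadily, since 2904 peaks lay between 5 and 6 times the lowest rate, 2878 between 6 and 7, and 695 between 7 and 8. At 24 hpf 8124 peaks lay between 3 and 4 times the lowest rate, 6705 between 4 and 5, and 1322 between 5 and 6. The lowest rate was 1.65 fragments at 48 hpf and 2.67 at 24 hpf, so equal multiples stand for unequal rates in fragments. The background rates of shared pairs ranked alike at the 2 stages (Spearman rho 0.81 over 159290 pairs, which share their positions).

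**Figure D2:**
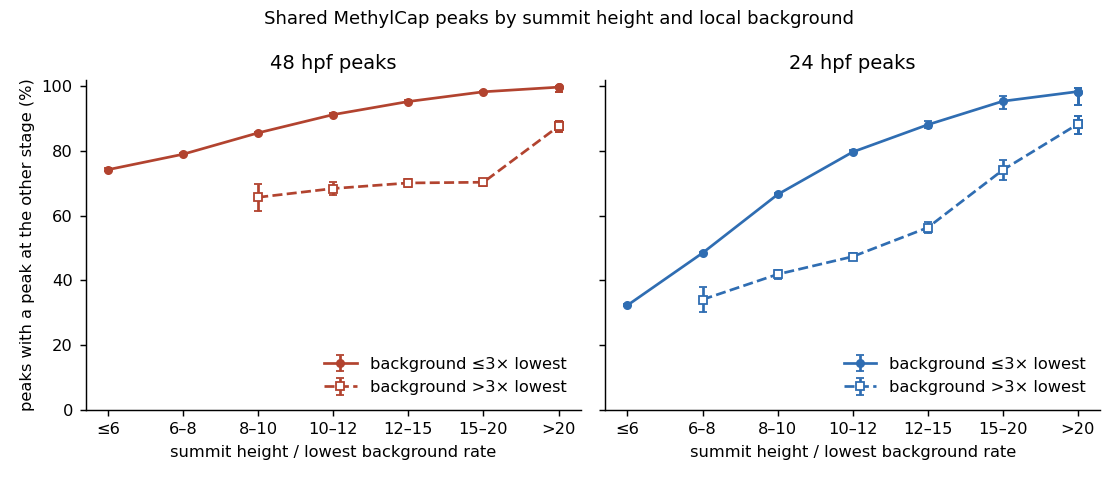
Percentage of 48 hpf peaks (left) and 24 hpf peaks (right) with an overlapping peak at the other stage, by summit height over the lowest background rate of the library. Filled circles are peaks on a background of at most 3 times that rate, open squares peaks on a higher one, and bars Wilson 95% intervals; at heights of 12 to 15 the 24 hpf shares were 88.1% and 56.3%.

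The lower depth of the 48 hpf library was examined by scaling each 24 hpf peak to it. The fragments at the summit and the background rate were multiplied by 0.619, the ratio of the lowest rates, and the Poisson p was computed again. This ratio differs from the 0.563 for fragments per base by the assumed fragment lengths. After this, 291959 of the 24 hpf peaks (88.4%) still reached the −log10 p that 99% of 48 hpf peaks exceeded (3.50). Of those that reached it, 50.4% (50.2 to 50.6%) had a 48 hpf peak and 144781 (49.6%) did not. Of those that did not reach it, 31.7% had one. With the limit at the 10th percentile of 48 hpf peaks (4.50), 68.1% reached it, and 54.8% of these had a 48 hpf peak. The 24 hpf-only share was 49.6% and 45.2% among the scaled peaks that reached the lower and the higher limit, and 51.8% in the full list. The rescaling takes the observed height of each 24 hpf summit as its mean and leaves out the scatter of fragment counts. These peaks entered because they were called at 24 hpf, so their observed heights can lie above their means. The shares that reached the limits may then be too high. It also leaves out the length a called peak needs, and the shortest peaks were 211 bp at 48 hpf and 192 bp at 24 hpf. The part of this choice, of the scatter and of the length was not tested.

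At shared sites the summits lay close together. Each shared 24 hpf peak was paired with the 48 hpf peak it overlapped most. The distance between the summits, each read as the peak start plus the summit offset, had a median of 71 bp (quartiles 29 and 150 bp). In 39.4% of pairs it was at most 50 bp and in 82.7% at most 200 bp, which is about the assumed fragment length. The signed distance, 48 hpf minus 24 hpf, had a median of −1 bp and quartiles of −72 and 69 bp, so that the summits showed no common direction. The 48 hpf summit fell inside the 24 hpf peak in 89.2% of pairs. Distances grew with width, with a median of 46 bp for pairs of mean width under 300 bp and 274 bp for pairs of 1000 bp or more. With height they followed no single direction. The median was 66 bp where the lower partner had a relative height under 6, 96 bp between 10 and 15, and 57 bp at 15 or more.

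The 48 hpf partner was slightly narrower and, by relative height, slightly taller. The width ratio, 48 hpf over 24 hpf, had a median of 0.957 (quartiles 0.723 and 1.22), although the shortest possible peak was longer at 48 hpf. The ratio of relative heights had a median of 1.18 (0.935 and 1.48), and that of the deposited folds 1.04 (0.859 and 1.24). A ratio of relative heights of 2 or more was found in 8456 of the 159290 pairs (5.31%), and one of 0.5 or less in 697 (0.438%). Pairs exist only where both peaks were called, and a call at the lower depth needs a greater relative height. The part of this in the ratio was not tested, and the median ratio is not taken as a measure of a change in methylation. In the full lists, relative heights of 12 to 15 were found for 20924 peaks at 48 hpf and 7255 at 24 hpf. Heights of 15 to 20 were found for 11378 and 1263, and heights above 20 for 1937 and 677. Up to a height of 10 the 24 hpf list held more peaks in every bin.

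**Figure D3:**
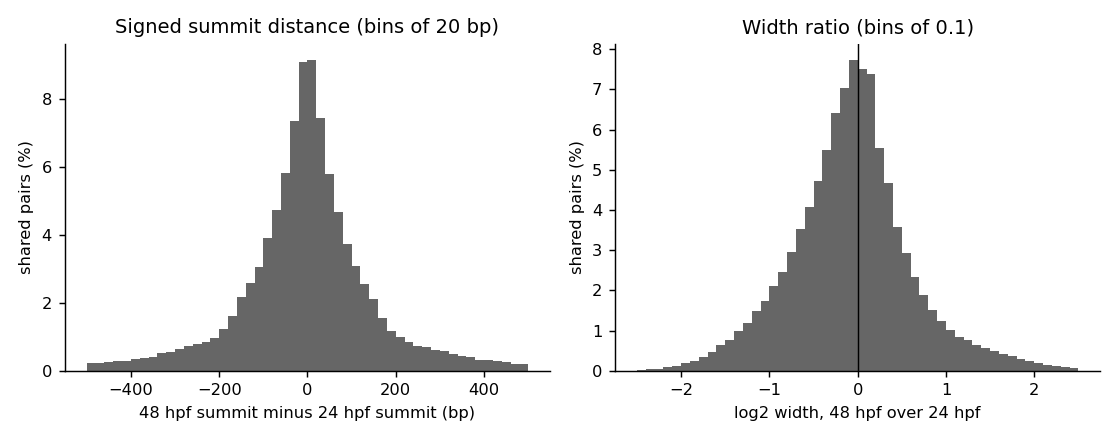
Distribution over the 159290 shared pairs of the signed distance between summits, 48 hpf minus 24 hpf (left, percentage of pairs per bin of 20 bp), and of the log2 width ratio, 48 hpf over 24 hpf (right, bins of 0.1). The 4068 pairs with summits over 500 bp apart (left) and the 245 pairs with a log2 width ratio beyond 2.5 either way (right) are not drawn; the median distance was −1 bp and the median width ratio 0.957.

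Ranks of fold matched moderately within shared pairs. The Spearman rho was 0.44 for fold, 0.42 for relative height, 0.41 for width and 0.28 for −log10 q over the 159290 pairs, which share positions and sequence. Of the 48 hpf peaks in the highest fold decile that had a partner, 41.6% (7779 of 18684) had one in the highest decile of the 24 hpf list, and 89.3% one in its highest 5 deciles. Of the 24 hpf peaks in the highest decile with a partner, 31.5% (7873 of 24961) had one in the highest decile of 48 hpf and 76.6% one in its highest 5 deciles. In the lowest decile, 45.8% of the partnered 48 hpf peaks and 48.8% of the partnered 24 hpf peaks had a partner in the lowest decile. Percentiles within lists of unequal length show the order within each library and no change between them.

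The sites that ranked highest in both lists had summits at most 145 bp apart, and 3 of the 4 had similar widths at both stages. On danRer7, with positions counted from 1, the first lay on chromosome 22, from 42253365 to 42255111 at 48 hpf and from 42253303 to 42255098 at 24 hpf, with 334 and 348 fragments at summits 17 bp apart. The next lay on chromosome 7, from 35921492 to 35923119 at 48 hpf and from 35921481 to 35923104 at 24 hpf, with 263 and 302 fragments. Chromosome 17 held the third and the fourth. A site from 53971423 to 53972287 at 48 hpf, and from 53971448 to 53972263 at 24 hpf, had folds of 13.5 and 13.3 and 167 and 216 fragments. Another, from 53840501 to 53841758 at 48 hpf, was 1258 bp wide there and 499 bp wide at 24 hpf (53841215 to 53841713), with folds of 12.2 and 11.9. The fragment numbers come from libraries of unequal depth. By relative height the 4 sites, in the order named, were 1.55, 1.41, 1.25 and 1.51 times as high at 48 hpf as at 24 hpf. In all 4 the background rate was also raised, between 6.93 and 23.6 times the lowest at 48 hpf and between 5.73 and 15.6 times at 24 hpf.

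The widest shared sites showed a different shape, in which a high background left a low fold. On chromosome 20 a peak spanned 2869 bp at 48 hpf (55784593 to 55787461) and 3096 bp at 24 hpf (55784552 to 55787647), with 247 and 289 fragments and folds of 2.54 and 2.51. Its background rate was 58.5 times the lowest at 48 hpf and 43.0 times at 24 hpf. On chromosome 5 a peak of 2638 bp at 48 hpf (1191911 to 1194548) and 2803 bp at 24 hpf (1191873 to 1194675) had 235 and 280 fragments and folds of 2.58 and 2.59. By relative height the 2 sites were 1.38 and 1.36 times as high at 48 hpf as at 24 hpf. Both sites were among the lowest 5% of their lists by fold and among the highest 1% by fragments.

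The 4 strongest 48 hpf-only peaks were picked by the highest −log10 q, which at a given background rises with the number of fragments. Each held more fragments than 95% of the 48 hpf list, whose 95th percentile was 26. The one with the highest −log10 q, on chromosome 18 from 15300763 to 15301373, had 32 fragments and a fold of 10.6 and lay 722 bp from the nearest 24 hpf peak. A peak on chromosome 20 from 32405795 to 32406124 had 28 fragments on the lowest background rate, a fold of 10.9, and no 24 hpf peak within 2739 bp. A peak on chromosome 5 from 11646976 to 11647204 had 33 fragments and a fold of 8.55, and one on chromosome 25 from 23378106 to 23378472 had 29 fragments and a fold of 9.45, 124 bp from a 24 hpf peak. Divided by 0.619, the ratio of the lowest rates, these 4 would hold 51.7, 45.2, 53.3 and 46.8 fragments, above the 99th percentile of the 24 hpf list (36). These 4 are extremes picked from the 34541 peaks of 48 hpf without a 24 hpf call, so the missing call is part of the choice. Why the deeper library made no call there was not tested. The 2 widest, on chromosome 23 from 4356572 to 4358061 (1490 bp) and on chromosome 11 from 21740090 to 21741182 (1093 bp), had folds of 3.21 and 2.71 on backgrounds of 5.06 and 4.76 times the lowest. Of the 554 peaks of 48 hpf with −log10 q of 20 or more, 2 had no 24 hpf counterpart, namely those named first and second above.

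The 4 strongest 24 hpf-only peaks were picked by the highest −log10 q, which at a given background rises with the number of fragments. Each held more fragments than 99% of the 24 hpf list, whose 99th percentile was 36. On chromosome 10 a peak from 46520322 to 46521255 had 73 fragments and a fold of 7.11, and the nearest 48 hpf peak lay 2741 bp away. A peak on chromosome 9 from 38498828 to 38499266 had 39 fragments on the lowest background rate and a fold of 10.9, with 5269 bp to the nearest 48 hpf peak. A peak on chromosome 3 from 11923577 to 11924771 spanned 1195 bp and had 46 fragments, and one on chromosome 9 from 54434905 to 54435257 had 57. The nearest 48 hpf peak lay 5057 bp from the peak on chromosome 3 and 712 bp from this last one. The background rates of the first, the third and the last were 3.53, 1.58 and 2.80 times the lowest. Multiplied by 0.619, the ratio of the lowest rates, these 4 would hold 45.2, 24.1, 28.5 and 35.3 fragments. The first and the last lie above the 99th percentile of the 48 hpf list (33), the third between its 95th (26) and 99th, and the second below its 95th. The widest 24 hpf-only peaks, on chromosome 16 from 16292052 to 16293844 (1793 bp) and on chromosome 9 from 905389 to 906956 (1568 bp), had folds of 3.29 and 3.82 and lay 336 and 168 bp from a 48 hpf peak. Of the 1067 peaks of 24 hpf with −log10 q of 20 or more, 41 (3.84%) had no 48 hpf counterpart. That limit was chosen after the values were seen.

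Some shared sites stood near opposite ends of the 2 orders of fold, which shows their place within each list and no change between them. The largest difference with the higher place at 48 hpf was on chromosome 5, where 22 fragments and a fold of 7.40 at 48 hpf (22392906 to 22393218) met 8 fragments and a fold of 2.46 at 24 hpf (22392866 to 22393120), so that the relative height was 4.44 times as high at 48 hpf. Sites on chromosome 3 (55231495 to 55231984 at 48 hpf) and chromosome 11 (17353011 to 17353604 at 48 hpf) had 22 fragments each at 48 hpf and 9 and 10 at 24 hpf. The largest difference with the lower place at 48 hpf was on chromosome 13, where the 48 hpf peak had 6 fragments (14073125 to 14073341) and the 24 hpf peak 26 (14072811 to 14073393), a relative height 0.373 times as high at 48 hpf. Sites on chromosome 10 (31852592 to 31852802 at 48 hpf) and chromosome 18 (18592054 to 18592355 at 48 hpf) had 6 and 8 fragments at 48 hpf and 25 and 33 at 24 hpf. These 6 were picked as extremes among 40473 pairs with a −log10 q of 10 or more at either stage, and their differences were not tested. In 3 of the 6 the lower partner had the smallest number of fragments in its list, which was 6 at 48 hpf and 8 at 24 hpf.

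Peaks of both stages were spread in a like way over the chromosomes (Spearman rho of peaks per Mb 0.73 over 25 chromosomes). The 48 hpf list held 133.5 peaks per Mb on chromosome 7, its lowest density, and 162.2 on chromosome 22, its highest. The 24 hpf list ran from 227.1 per Mb on chromosome 1 to 267.6 on chromosome 22. Peaks covered 4.98 to 6.08% of a chromosome at 48 hpf and 8.11 to 9.75% at 24 hpf. The median width by chromosome was at most 314 bp at 48 hpf and 302 bp at 24 hpf. The ratio of peak numbers, 48 hpf over 24 hpf, ran from 0.558 on chromosome 17 to 0.606 on chromosome 22 on all chromosomes but one. Chromosome 4 had 9591 peaks at 48 hpf and 14604 at 24 hpf, a ratio of 0.657 (0.640 to 0.674). It also had the lowest share of 48 hpf peaks with a 24 hpf peak (80.1%, others 80.4 to 84.8%) and the highest share of 24 hpf peaks with a 48 hpf peak (52.6%, others 46.0 to 49.2%).

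**Figure D4:**
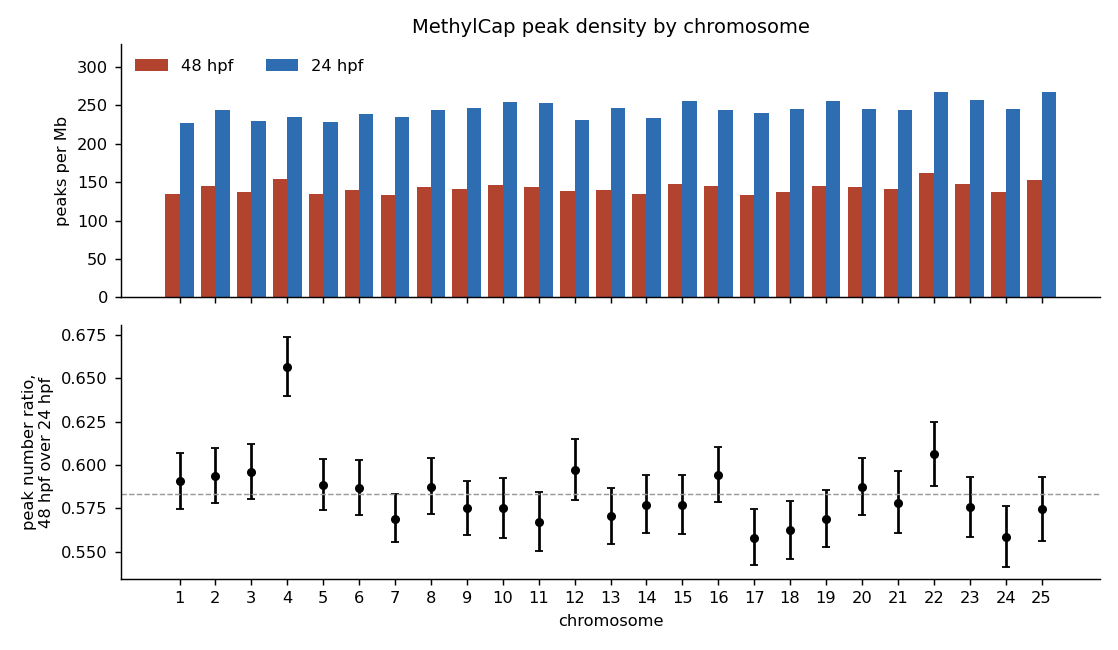
Top, MethylCap peaks per Mb on each chromosome at 48 hpf (red) and 24 hpf (blue). Bottom, the ratio of peak numbers, 48 hpf over 24 hpf, with exact 95% intervals for counting error and the ratio of the whole lists as a dashed line (0.584); chromosome 4 lies above the other chromosomes at 0.657.

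Chromosome 4, whose long arm is known in zebrafish for repeats and heterochromatin, was uneven along its length. In steps of 10 Mb from its start, the ratio of peak numbers was 0.480, 0.423, 0.616, 0.800, 0.813, 0.759 and 0.634. The share of 24 hpf peaks with a 48 hpf peak was 40.8%, 36.0%, 49.4%, 63.6%, 63.3%, 59.1% and 50.5%. The first 20 Mb thus lay below the range of the other chromosomes taken whole, and the stretch from 30 to 60 Mb above it. The steps from 20 to 30 Mb and from 60 Mb on lay just above its upper end. Steps of 10 Mb were not computed for the other chromosomes, so how unusual these values are for stretches of this length is not known. Single windows of 1 Mb elsewhere had shares as low as 26.6% (chromosome 23) and as high as 69.9% (chromosome 5). The steps with the lowest and the highest ratio are given in full. From 10 to 20 Mb there were 845 peaks at 48 hpf and 1998 at 24 hpf, a ratio of 0.423, and 36.0% (34.0 to 38.2%) of the 24 hpf peaks had a 48 hpf peak. From 40 to 50 Mb there were 2026 and 2493, a ratio of 0.813, and the share was 63.3% (61.4 to 65.2%). Background above 3 times the lowest rate was found there for 33.2% of 48 hpf peaks and 23.8% of 24 hpf peaks, against 0.473% and 0.300% from 10 to 20 Mb. The median relative height from 40 to 50 Mb was 10.9 at 48 hpf and 7.88 at 24 hpf, and from 10 to 20 Mb it was 6.67 and 6.19. How reads that map to several places were handled is not given in the sources used here, and its part in these values was not tested.

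Along the chromosomes, windows of 1 Mb with many peaks at one stage had many at the other. Over the 1359 windows with at least 100 peaks at 24 hpf, the Spearman rho of peak numbers was 0.83, and in no window did 48 hpf peaks outnumber those of 24 hpf. Densities were higher towards the chromosome ends. Of 10 equal parts of each chromosome, the first and the last held 12.2% and 12.5% of the 48 hpf peaks and 12.1% and 12.1% of the 24 hpf peaks, while part 6 held 8.16% and 8.65%. The share of 24 hpf peaks with a 48 hpf peak varied little with this position, between 45.9% in part 6 and 50.4% in part 9.

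Between single windows the share of 24 hpf peaks with a 48 hpf peak ran from 26.6 to 69.9%, with a median of 47.9% and 5th and 95th percentiles of 38.2 and 58.5%. The lowest lay on chromosome 23 from 23000001 to 24000000, where 48 hpf had 88 peaks and 24 hpf 263, of which 70 were shared (26.6%, 21.6 to 32.3%). It was followed by chromosome 7 from 57000001 to 58000000 (26.9%, 50 of 186) and chromosome 24 from 4000001 to 5000000 (30.8%, 86 of 279). Their median relative heights at 24 hpf were at most 6.75, the median of the whole list. The highest lay on chromosome 5 from 44000001 to 45000000 (69.9%, 160 of 229), chromosome 22 from 9000001 to 10000000 (69.6%, 87 of 125) and chromosome 8 from 35000001 to 36000000 (68.8%, 232 of 337). The window on chromosome 8 had a median background of 3.49 times the lowest rate at 48 hpf and 2.17 times at 24 hpf. The window on chromosome 22 had 1.04 times at 48 hpf and the lowest rate itself at 24 hpf. Its median relative height at 24 hpf was 6.38, also under 6.75, and those on chromosomes 5 and 8 were 7.88 and 10.1. Of the 44 windows above 60%, 23 lay on chromosome 4, which holds 62 of the 1359 windows, and 14 of the 118 windows below 40% did.

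**Figure D5:**
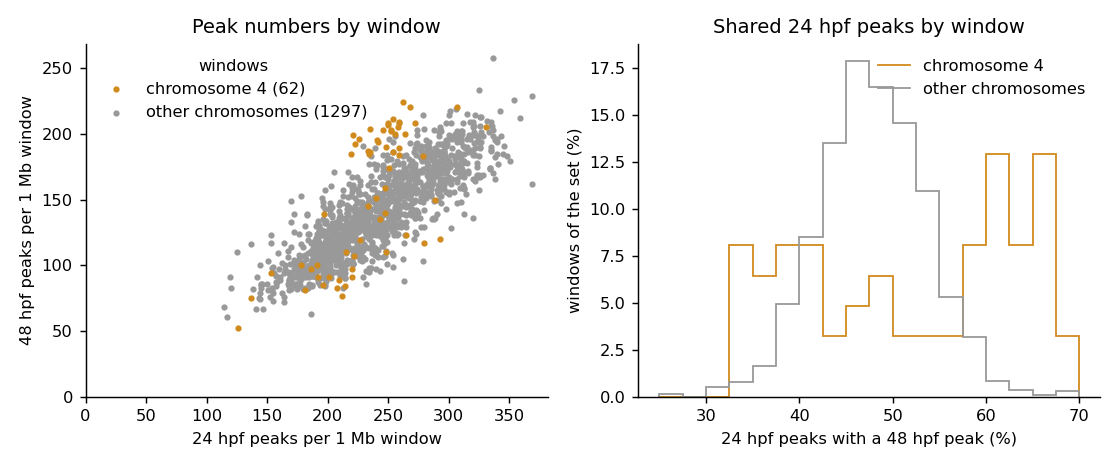
Left, MethylCap peaks at 48 hpf against peaks at 24 hpf in each 1 Mb window with at least 100 peaks at 24 hpf, for chromosome 4 (62 windows, orange) and the other chromosomes (grey). Right, the distribution over these windows of the percentage of 24 hpf peaks that had a 48 hpf peak; the median window had 47.9%, and of the 62 windows on chromosome 4, 23 lay above 60% and 14 below 40%.

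Some stretches held a row of 24 hpf-only peaks. The longest rows had 23 peaks each, on chromosome 21 from 19396060 to 19458235 and on chromosome 22 from 38763783 to 38817727, with 10 to 33 and 12 to 24 fragments per peak. In each of these spans the 48 hpf list held 2 peaks, with 10 and 12 fragments on chromosome 21 and 9 and 11 on chromosome 22. A row of 20 peaks over 65.3 kb on chromosome 12, from 29131090 to 29196373, had 11 to 21 fragments per peak and held no 48 hpf peak. These rows were picked as the longest after the values were seen. Of all 330176 peaks at 24 hpf, 51.8% were 24 hpf-only, and how long a row this share alone would give was not tested. A row ends at the first shared peak, so the small number of 48 hpf peaks inside is part of the choice. Across the list, neighbours were most alike at short range. At 48 hpf the next peak within 500 bp was 48 hpf-only in 26.6% of cases after a 48 hpf-only peak and in 14.8% after a shared one. At 24 hpf the next peak within 500 bp was 24 hpf-only in 54.7% of cases after a 24 hpf-only peak and in 37.8% after a shared one. From 500 to 2000 bp apart the shares were 22.4% and 19.3% at 48 hpf, and 52.7% and 53.9% at 24 hpf. Neighbours this close can overlap the same peak of the other stage, and the part of such cases was not tested. Farther apart, the 24 hpf shares were 53.5% and 55.2% from 2000 to 5000 bp. They were 53.0% and 49.4% from 5000 to 20000 bp, and 52.4% and 48.2% beyond. At 48 hpf they were 19.7% and 18.4%, 18.7% and 16.7%, and 19.8% and 16.9% over the same ranges.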

How the data were processed

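MACS2, SAMtools, Bowtie2 2.2.1 and CASAVA 1.8.2 are named in the submitters' processing notes, with danRer7 as build. What role each had, its parameters, and whether a control or pooled samples were used are not given there. The deposited lists have the layout of MACS2 narrow peaks. Their fold, a ratio over local background, the −log10 p and −log10 q values and the score (10 times −log10 q without decimals in all peaks of both lists) are the authors'. The summit offset, in bp, was added to the start.

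From these lists, overlaps, distances, ranks, densities and Wilson intervals were computed with Python 3.11.15, numpy 2.4.6, pandas 2.3.3 and SciPy 1.17.1, and drawn with matplotlib 3.10.9. Fragment numbers were recovered from fold and p by search over whole numbers, and this step and the overlaps were tested on simulated data. The simulated fragment numbers and background rates covered only part of the range in the lists. Chromosome lengths were taken as the highest peak end. Regions were named by rule: in each class (shared, 48 hpf-only, 24 hpf-only) the 4 highest by −log10 q (by sum of ranks for shared pairs) and the 2 widest, the 3 largest differences in fold percentile in each direction, and the 3 highest and lowest windows. The members and lists were chosen with earlier results of these data known. No genome or gene annotation of danRer7 was used here, so the planned promoter lists were not analysed here, no gene is assigned to a region and no sequence is shown. Alternatives to the overlap rule, list length, threshold, pairing and rank are given in the closing section.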

Additional observations from a re-analysis of the deposited data

Results flagged for a closer look

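The 48 hpf list held 0 peaks on the mitochondrial genome, outside the numbered chromosomes, and the 24 hpf list held 4. These 4 drew attention because they lie in data that the comparison did not use. Their folds lay between 3.27 and 3.82 and their −log10 q between 3.27 and 4.47.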

How the results depend on the processing

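Of 44 recalculations, 8 lay within the 95% interval of the reported value. These 8 include the collapse of identical entries, of which there were none. They also include the use of all sequences, which added only the 4 mitochondrial peaks at 24 hpf. Neither setting could move the shares out of their intervals. The share of 48 hpf peaks with a 24 hpf peak (82.1%) was 79.0% with an overlap of 50% of the shorter peak, 76.1% with the summit inside the other peak, 65.0% in the higher-scoring 50% of each list, 81.4% at −log10 q of at least 3 and 59.4% with the 24 hpf list reduced to the length of the 48 hpf list. The share of 24 hpf peaks with a 48 hpf peak (48.2%) was 46.1%, 42.4%, 38.2%, 45.0% and 57.8% under the same 5 settings, and 48.0% without chromosome 4. The reduced list makes the lists equally long, so that both shares come close by construction. Chosen after seeing the data, the rescaling to the 48 hpf depth gave 50.4% and 54.8% of the 24 hpf peaks that reached the 1st and 10th percentile. Peaks of both lists on at most 3 times the lowest background, also chosen after seeing the data, gave 82.6% of 48 hpf and 47.0% of 24 hpf peaks. The median summit distance (71 bp) was 67 bp with 50% overlap, 69 bp with the −log10 q limit and with equal lengths, and 68 bp for reciprocal pairs. The rank correlation of fold (0.44) was 0.43 with 50% overlap, 0.38 with equal lengths, 0.44 without chromosome 4 and 0.46 for reciprocal pairs, and 0.28 by −log10 q. The width ratio (0.957) was 0.951, 0.966, 0.902 and 0.941 with 50% overlap, the −log10 q limit, equal lengths and reciprocal pairs. The lowest and highest ratios of peak numbers by chromosome (0.558 and 0.657) were 0.523 and 0.623 with the −log10 q limit, and 0.939 and 1.16 with equal lengths. The lowest and highest fold deciles of 24 hpf peaks without a 48 hpf peak (61.5% and 24.4%) were 67.8% and 24.9% with 50% overlap, and 68.8% and 21.0% by −log10 q. The cause of these differences was not tested. No list had identical entries. No paired analysis was possible because each stage had 1 library. The lowest background rates were 1.65 fragments at 48 hpf and 2.67 at 24 hpf. The lists held no peak below 6 fragments at 48 hpf or 8 at 24 hpf, and their lowest −log10 q values were 1.32 and 1.34.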
